A study of Mus musculus with 8 samples.

Results

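The genes described here are the apolipoprotein L genes of mouse chromosome 15 together with *Gm8221*, a non-coding gene that lies among them, and *Cacng2*, a few genes away. The members are *Apol6*, *Apol7a*, *Apol7b*, *Apol7c*, *Apol7e*, *Apol8*, *Apol9a*, *Apol9b*, *Gm8221* and *Cacng2*, and every probe with one of these names in the deposited annotation was taken. These are 10 genes, of which 9 are among the 26916 named genes on the array, with 14 probes. *Apol7e* has no probe. The set was proposed with the difference between βUCP2Tg and WT islets in view, so for the members that difference is given as a description, with no p-value. Where the fit over all probes called a member, the call was largely fixed by that choice and supports nothing.

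The study compared islets of βUCP2Tg mice with islets of wild-type (WT) mice, 4 samples each, on one-colour Agilent arrays. βUCP2Tg mice carry a transgene in which a rat *Ins2* promoter drives a mouse *Ucp2* cDNA, which directs it to β-cells. All donors were male, the line had been backcrossed to C57BL6/J, and the WT mice were littermates. Both groups of islets were kept for 8 h in RPMI medium with 200 mg/dL glucose and 10% serum, and genotype is the only difference the labels give. The labels do not say whether a sample came from a single mouse or several, so n, SD, standard errors and p-values refer to the spread between samples, which may be technical. *Ucp2* itself was 75.4-fold higher by its brighter probe and 1.36-fold higher, and not called, by its other tested probe. By both, every βUCP2Tg sample was above every WT sample.

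Apolipoprotein L proteins have amphipathic helices and act at intracellular membranes. The family is best known for human APOL1, which kills trypanosomes and whose coding variants raise the risk of kidney disease. The mouse cluster has no direct counterpart of APOL1 and has been multiplied by duplication, which leaves near-identical copies. *Apol9a* and *Apol9b* are such a pair, are induced by interferon and bind phosphatidylethanolamine, while *Apol7c* is known from dendritic cells, where it acts on phagosomes. *Cacng2* encodes stargazin, the founding member of the TARP proteins that bring AMPA-type glutamate receptors to the cell surface, and is unrelated to the *Apol* genes in sequence. *Gm8221* is described as a non-coding RNA in the array annotation and as a pseudogene in RefSeq.

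The probes that carry the results are 60 bases long and are shown as deposited, because they decide which copies of this duplicated family an array can tell apart. Capitals mark the positions at which the *Apol9a* and *Apol9b* probes differ. All other letters are in lower case.
Gm8221 (A_52_P69558): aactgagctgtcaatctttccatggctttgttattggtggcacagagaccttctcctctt
Apol7c (A_51_P239177): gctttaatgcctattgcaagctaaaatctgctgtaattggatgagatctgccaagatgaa
Apol7b (A_55_P2019113): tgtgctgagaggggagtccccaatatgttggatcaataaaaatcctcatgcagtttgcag
Cacng2 (A_55_P1972172): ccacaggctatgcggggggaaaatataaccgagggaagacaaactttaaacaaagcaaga
Cacng2 (A_51_P226645): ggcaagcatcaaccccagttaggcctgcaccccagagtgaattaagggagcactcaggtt
Apol9a (A_55_P2043367): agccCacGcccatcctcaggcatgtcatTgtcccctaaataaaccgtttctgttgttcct
Apol9b (A_66_P110633): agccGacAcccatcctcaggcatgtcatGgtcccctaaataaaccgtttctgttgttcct
The *Apol9a* and *Apol9b* probes match at 57 of 60 positions. Counted from the 5′ end with the *Apol9a* base first, the substitutions are C5G, G8A and T29G. Transcripts of both genes can bind either probe, and the values of this pair are treated below as not separable. No other pair of member probes comes near this: the next longest run of shared bases, between the *Apol7c* probe and an *Apol7a* probe (A_51_P497724), is 14 bases. Probes were compared with probes and not with transcripts. Whether a probe of another gene, such as *Apol7b*, also binds transcripts of *Apol7e*, which has no probe, was not tested. For the *Gm8221* probe, the most similar probe of the array at the same positions matches at 30 of 60.

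A signal is given as log2 of the background-subtracted intensity minus the 75th percentile of the same array, so that 0 is the intensity of a fairly bright probe and each unit is a factor of 2. Signals of different probes cannot be set against each other. A probe was tested when the scanner software marked it as well above background on 4 or more arrays, which held for 35363 of 56605 probes. On a single array, between 33191 and 36320 probes were so marked, and no spot was saturated. Arrays correlated at 0.966 to 0.994, and no pair was identical. The 8 arrays shared 1 slide with βUCP2Tg in one row and WT in the other, so slide position and genotype cannot be told apart. WT 1 and WT 3 had 2 of 10 quality metrics out of range.

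Of the 14 member probes, 6 were tested, 1 each for *Gm8221*, *Apol7c*, *Apol7b*, *Cacng2*, *Apol9a* and *Apol9b*, and 8 were too dim. A probe was called where limma gave a Benjamini-Hochberg adjusted p under 0.05 and a change over 1.5-fold. Over all tested probes, 145 were called, which is 0.41%, and 73 were called higher in βUCP2Tg, which is 0.206%. Of the member probes, 3 were called higher and none lower, a count that the choice of the members fixed. The arrays of the groups did not overlap for 12.4% of all tested probes, and for 5.25% every βUCP2Tg array was above every WT array. The 3 probes are those of *Gm8221*, *Apol7c* and *Cacng2*. Their groups did not overlap, which restates the difference by which they were chosen, and *Gm8221* passed the filter on dim probes through its βUCP2Tg arrays.

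**Figure D1:**
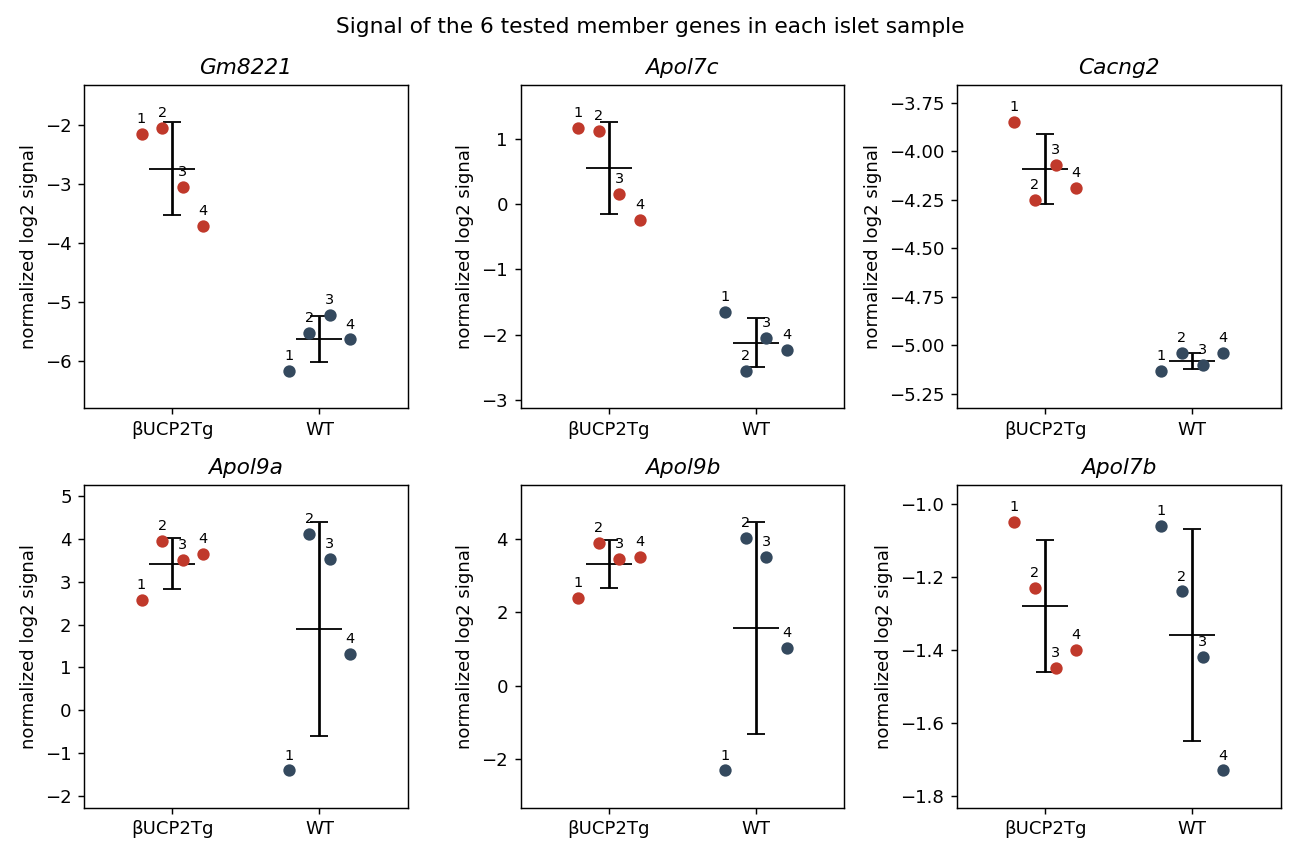
Normalized log2 signal (vertical axes, each with its own range) of the 6 tested member probes in 4 βUCP2Tg samples (red) and 4 WT samples (blue). Points are samples with their replicate number, and the bars show mean ± SD. *Gm8221*, *Apol7c* and *Cacng2* are separated by genotype, *Apol9a* and *Apol9b* spread widely among the WT samples, and the groups overlap for *Apol7b*.

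The *Gm8221* transcript was higher in all βUCP2Tg islets. Its probe read -2.15, -2.05, -3.05 and -3.71 in βUCP2Tg 1 to 4 and -6.17, -5.53, -5.23 and -5.64 in WT 1 to 4. The groups were separated by a gap of 1.52, with βUCP2Tg 4 the nearest to WT. The means were -2.74 ± 0.79 (SD, n = 4) and -5.64 ± 0.39 (SD, n = 4), a difference of 2.90 between the measured log2 means. All βUCP2Tg arrays measured the probe well above background, but of the WT arrays only WT 3 did, so most WT values are near the floor of the array. The difference is therefore a description of the measured values, and no fold is given. In whole islets, a lower level can mean fewer cells of a type or less RNA per cell, and these cannot be told apart.

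*Apol7c* behaved in the same way from a level that every array could measure. The normalized signal was 1.16, 1.12, 0.15 and -0.24 in βUCP2Tg 1 to 4 and -1.65, -2.55, -2.05 and -2.23 in WT 1 to 4. Again βUCP2Tg 1 and 2 were highest, βUCP2Tg 4 lowest of its group, and no WT sample reached it, the gap being 1.40. The means of 0.55 ± 0.70 (SD, n = 4) and -2.12 ± 0.38 (SD, n = 4) differed by 2.66 (standard error 0.35), which is 6.34-fold. The spread among βUCP2Tg samples was wide for both genes: only 1.7% of tested probes had a larger SD in βUCP2Tg than *Gm8221*, and only 2.42% than *Apol7c*. Among WT samples this share was 26.6% for *Apol7c*.

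*Cacng2* was higher in βUCP2Tg islets by a smaller and more even margin. By its brighter probe the signal was -3.85, -4.25, -4.07 and -4.19 in βUCP2Tg 1 to 4 and -5.13, -5.04, -5.10 and -5.04 in WT 1 to 4. All 8 arrays measured it, the groups were apart by 0.79, and the WT samples lay within 0.09 of each other. Means were -4.09 ± 0.18 (SD, n = 4) and -5.08 ± 0.04 (SD, n = 4), with a log2 difference of 0.99 (standard error 0.11), or 1.99-fold. Of all tested probes, 98.8% had a larger SD among WT samples. The other *Cacng2* probe (A_51_P226645) was well above background on 3 of 8 arrays and was not tested. It read -6.57, -5.61, -5.76 and -5.94 in βUCP2Tg 1 to 4 and -5.70, -7.43, -6.13 and -5.76 in WT 1 to 4. There the groups overlapped, and the higher level seen with the brighter probe was not seen.

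The sizes of these differences depended on the background correction. Under normexp with an offset of 50, *Gm8221* differed by 0.86 and *Cacng2* by 0.13 on the log2 scale, while *Apol7c* still differed by 2.25. The number of member probes called higher fell from 3 to 0 when βUCP2Tg 1, βUCP2Tg 2, βUCP2Tg 3, WT 2, WT 3 or WT 4 was left out, and stayed at 3 without βUCP2Tg 4 or WT 1. Over the 8 such fits the differences ran from 2.67 to 3.23 for *Gm8221*, from 2.46 to 2.93 for *Apol7c* and from 0.91 to 1.04 for *Cacng2*.

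**Figure D2:**
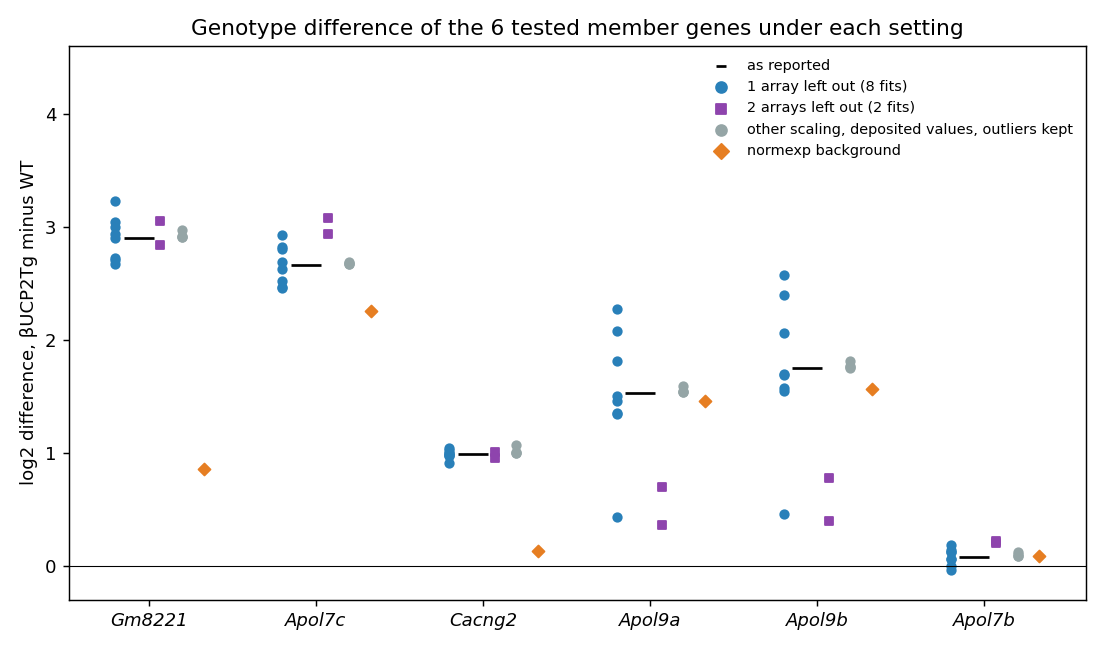
Log2 difference between βUCP2Tg and WT (vertical axis) of the 6 tested member probes as reported and under each other setting. *Gm8221*, *Apol7c* and *Cacng2* stay near 2.90, 2.66 and 0.99 except for *Gm8221* (0.86) and *Cacng2* (0.13) under the normexp background correction, whereas *Apol9a* and *Apol9b* fall to 0.43 and 0.46 when WT 1 is left out.

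*Apol7b*, which lies between *Apol9a* and *Apol7c* in the cluster, did not separate the groups. It read -1.05, -1.23, -1.45 and -1.40 in βUCP2Tg 1 to 4 and -1.06, -1.24, -1.42 and -1.73 in WT 1 to 4. The ranges overlapped almost entirely, with a log2 difference of 0.08 (standard error 0.16) whose lowest and highest values over the fits with 1 array left out were -0.04 and 0.18. *Apol7b* was well above background on all 8 arrays, so dimness does not limit this comparison.

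*Apol9a* and *Apol9b* varied more between WT samples than between genotypes. *Apol9a* read 2.58, 3.95, 3.50 and 3.65 in βUCP2Tg 1 to 4 and -1.40, 4.11, 3.52 and 1.32 in WT 1 to 4. *Apol9b* read 2.39, 3.90, 3.46 and 3.50 in βUCP2Tg 1 to 4 and -2.31, 4.03, 3.50 and 1.03 in WT 1 to 4. For both genes WT 1 was the lowest and WT 2 the highest of all 8 samples, and every βUCP2Tg sample lay within the WT range.

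The WT samples spanned 5.50 log2 units for *Apol9a* and 6.34 for *Apol9b*, or 45.4-fold and 80.8-fold, against 1.37 and 1.51 among βUCP2Tg samples. Only 0.139% of tested probes had a larger SD among WT samples than *Apol9a*, and only 0.0339% a larger one than *Apol9b*. Against this spread, the log2 differences of 1.53 (standard error 1.09) and 1.75 (standard error 1.26) were small. Without WT 1 they dropped to 0.43 and 0.46, and without WT 2 they were 2.27 and 2.57.

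The remaining members were not well above background on most or all arrays. Both probes of *Apol6*, a relative of a human gene linked to cell death, were well above it on none of the 8 arrays. *Apol7a* has 3 probes, of which 1 (A_55_P2181752) was well above background on a single array, WT 1, at -5.14. *Apol8* has 2 probes. Of these, 1 (A_51_P115471) was well above background in WT 2 (-5.19) and WT 3 (-4.74) and on no βUCP2Tg array, where it read between -7.68 and -6.78. In the other WT samples it read -7.02 and -7.51, and the groups overlapped. The 5 member probes that were well above background on no array read between -8.27 and -6.43, and no difference was detectable there.

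*Apol9a* and *Apol9b* are known interferon targets, so their values were set beside 46 interferon-stimulated genes, all of which were tested. No gene of this list was called, against 58 higher and 58 lower of 17870 genes, and the smallest adjusted p was 0.361 by limma. None had an unadjusted p under 0.05, against 4380 of 17870 over all genes. The median log2 difference of the list was 0.66, against 0.03 over all tested genes. Expressed as the mean of the genes after each was centred over the arrays, the list stood at -0.19, 0.56, 0.39 and 0.58 in βUCP2Tg 1 to 4 and at -2.69, 1.33, 0.98 and -0.97 in WT 1 to 4. This is the order in which *Apol9a* placed the WT samples. WT 1 was the lowest array for 45 of the 46 genes and WT 2 the highest for 46, whereas WT 1 was lowest for 11.9% of all tested probes. The median moved to -0.08 without WT 1, to 1.28 without WT 2, to 1.12 without WT 3 and to 0.43 without WT 4.

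**Figure D3:**
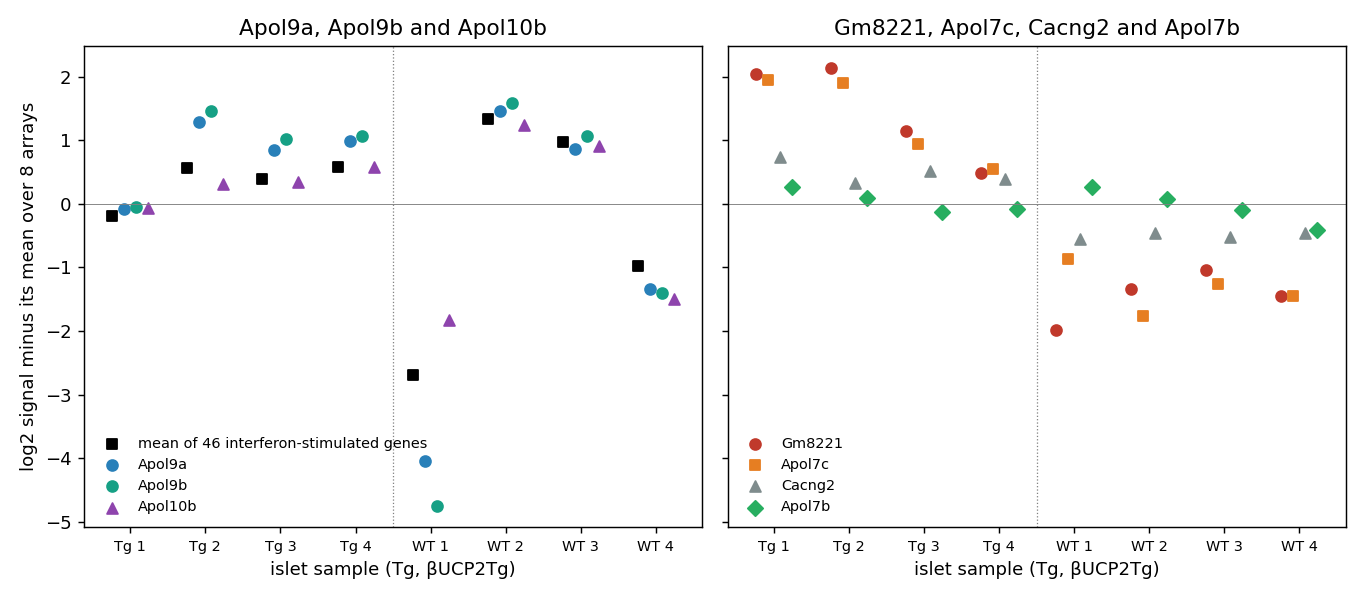
Log2 signal of each gene minus its own mean over the 8 arrays (vertical axis) in each islet sample (horizontal axis, Tg for βUCP2Tg). Left, *Apol9a*, *Apol9b*, *Apol10b* and the mean of 46 interferon-stimulated genes, all lowest in WT 1 and highest in WT 2. Right, *Gm8221*, *Apol7c* and *Cacng2*, higher in every βUCP2Tg sample, and *Apol7b*, which shows no such step.

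The genes whose profile over the 8 arrays was nearest to that of *Apol9a* were picked by the root mean square difference of centred log2 signals. *Apol9b* lay at 0.28. Outside the members, the nearest were *BC023105* (0.22), *Ifi44* (0.24), *Ifit3* (0.26), *Irf7* (0.27) and *Bst2* (0.27), of 30191 candidate probes. *Irf7* encodes a transcription factor of the interferon response, and *Bst2* encodes tetherin, which holds budding virus at the cell surface. *Ifi44*, *Ifit3*, *Irf7* and *Bst2* were also on the interferon list, and none was called. *Oas3* and *Bst2* had the largest log2 differences of that list, both 1.38 (standard errors 1.00 and 0.98, adjusted p = 0.415 and 0.407 by limma).

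The profile of *Gm8221* was nearest to that of *Apol7c*. The root mean square difference between them was 0.45, and no candidate probe outside the members came that near. This nearness rests on the genotype step by which both were chosen and on WT values of *Gm8221* that were well above background on 1 of 4 arrays, so it is a description only. Next were *Ptger3* (0.59), a prostaglandin E receptor, and *Kctd8* (0.60), an auxiliary subunit of GABA-B receptors. *B4galnt2* (0.64), *Gm6309* (0.66) and *Upp2* (0.67), a uridine phosphorylase, followed. All 5 were higher in βUCP2Tg islets, as picking them by nearness to *Gm8221* largely fixed, and no p is given for them. *B4galnt2* was well above background on 1 of 4 WT arrays and passed the filter through its βUCP2Tg arrays. *Cacng2* lay farther off at 1.09, *Apol7b* at 1.51 and *Apol9a* at 1.63. A shared genotype step brings such profiles together, and they rest on the same 8 arrays.

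Other cell types in the islets could carry these transcripts, so lists of their markers were read on the same arrays. No gene of any marker list was called, but over all 17870 tested genes only 58 were called higher and 58 lower. For lists this short, a count of 0 says little about cell composition. By limma, 3 macrophage, 3 endothelial, 2 β-cell, 1 glial and 1 other endocrine marker had an unadjusted p under 0.05. No acinar or dendritic marker had one, against 4380 of 17870 over all genes. The 8 β-cell markers were all tested and their centred mean lay between -0.19 and 0.15 in βUCP2Tg and between -0.20 and 0.30 in WT. The 9 acinar markers ran from -2.64 to 1.95 in βUCP2Tg and from -2.24 to 2.72 in WT. All 9 acinar markers had a lower mean in βUCP2Tg. Their log2 differences lay between -2.14 and -1.57, with a median of -1.81, and the smallest adjusted p was 0.313 by limma. The 9 macrophage markers ran from -0.59 to 0.31 in βUCP2Tg and from -0.53 to 0.80 in WT. Of these, 2 had a higher mean in βUCP2Tg, and the median log2 difference was -0.34. Endothelial markers ran from 0.00 to 0.33 and from -0.59 to 0.09, and markers of the other endocrine cells from -0.06 to 0.29 and from -0.28 to -0.02. Means were higher in βUCP2Tg for 5 of the 8 endothelial and 3 of the 4 other endocrine markers. The median log2 differences of these lists were 0.32 and 0.16. Only for the 4 glial markers did the centred means not overlap, being lower in βUCP2Tg (-0.36 to -0.02) than in WT (0.05 to 0.36). The median log2 difference was -0.25 for glial and -0.12 for β-cell markers. The part of any of these cell types in the member values was not tested.

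Of the 7 dendritic cell markers, 4 were tested and *Xcr1*, *Clec9a* and *Batf3* were too dim. The centred mean of these 4 was lowest in WT 1 (-0.76) and highest in WT 3 (0.80), and lay between -0.32 and 0.14 in βUCP2Tg. The 4 did not move together: in WT 1, *Ccr7* (-3.64), the receptor that guides dendritic cells to lymph nodes, and *Zbtb46* (-5.22) were at their lowest of all samples, while *Itgax* (-2.01) was at its highest. *Itgax*, *Flt3* and *Zbtb46* had lower means in βUCP2Tg and *Ccr7* a higher one, and none was called. The part of these cells in the *Apol9a*, *Apol9b* and *Apol7c* values was not tested.

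Along chromosome 15, RefSeq (GRCm38.p6) orders the members as *Apol6*, then *Apol7a*, *Apol9a*, *Apol7b*, *Apol7c*, *Gm8221*, *Apol7e*, *Apol9b* and *Apol8*, with *Cacng2* last. *Rbfox2* and *1700109K24Rik*, a long non-coding RNA, are the tested genes between *Apol6* and the cluster, and *Myh9*, *Txn2*, *Foxred2* and *Eif3d* separate *Apol8* from *Cacng2*. None of these was called: the log2 differences were -0.01 for *Rbfox2*, a splicing factor (adjusted p = 0.969 by limma), -0.53 for *1700109K24Rik* (0.233), -0.17 for *Myh9*, a non-muscle myosin (0.339), -0.08 for *Txn2*, mitochondrial thioredoxin (0.655), 0.45 for *Foxred2* (0.208) and -0.18 for *Eif3d*, a translation initiation factor subunit (0.313). Beyond *Cacng2*, *Ift27* differed by 0.38 (adjusted p = 0.229).

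Within 1 Mb of any member there are 150 other genes, of which 101 have a probe and 86 were tested. None was called by limma, 17 had an unadjusted p under 0.05, and the median log2 difference was 0.05. The largest differences were 0.92 for *Tst*, the mitochondrial thiosulfate sulfurtransferase (standard error 0.21, adjusted p = 0.0832), and -0.91 for *Pdxp*, a pyridoxal phosphatase (standard error 0.30, adjusted p = 0.123). Over all 17870 genes, 58 were called higher and 58 lower, and 4380 had an unadjusted p under 0.05. The groups did not overlap for 5 of the 86, all higher in βUCP2Tg, against 1137 higher and 1202 lower of the 17870, so these counts are near or below those of all genes.

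**Figure D4:**
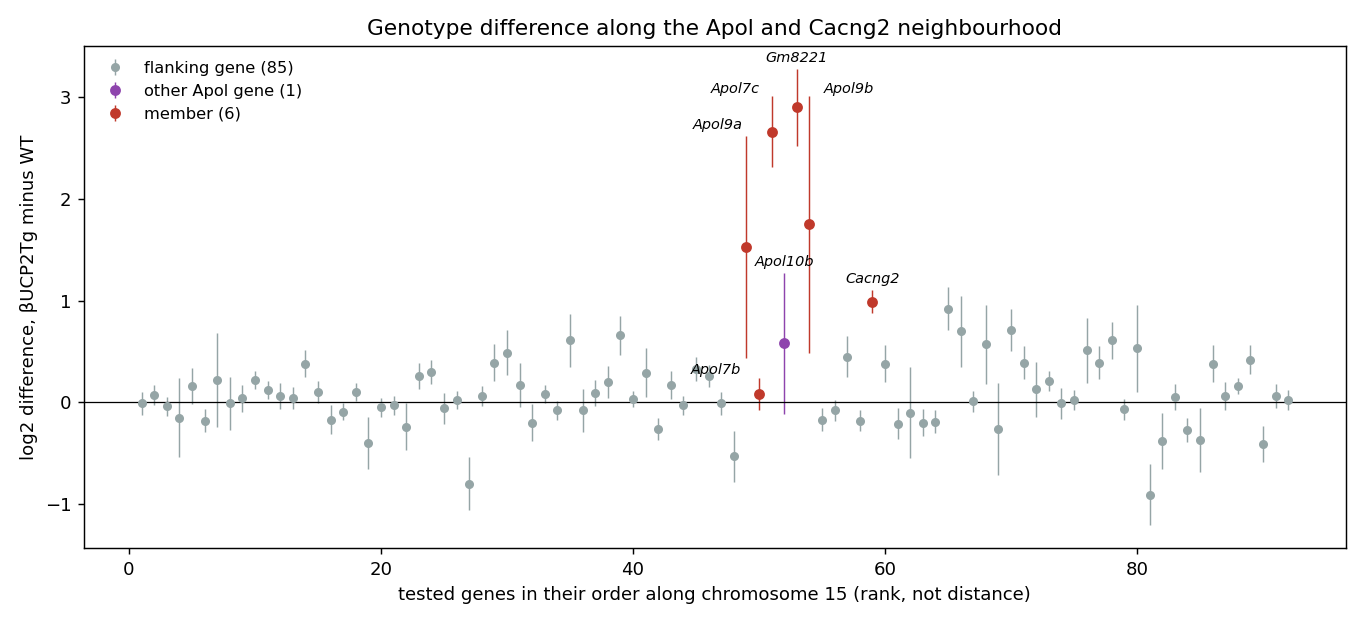
Log2 difference between βUCP2Tg and WT with its standard error (vertical axis) of the tested genes near the members, in their order along chromosome 15 (horizontal axis, rank and not distance). The flanking genes lie between -0.91 and 0.92, and the members *Apol7c* (2.66), *Gm8221* (2.90), *Apol9a* (1.53), *Apol9b* (1.75) and *Cacng2* (0.99) lie above them, the *Apol9* genes with standard errors of over 1.

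The other annotated genes of the family are *Apol7d*, *Apol10a*, *Apol10b*, *Apol11a*, *Apol11b* and the more distant *Apold1*, a gene of vascular endothelium on chromosome 6. Of these, 5 have a probe and 2 were tested, and none was called by limma. An unadjusted p under 0.05 was found for 1, against 4380 of 17870 over all genes. *Apol10b*, between *Apol7c* and *Gm8221*, read -2.72, -2.34, -2.31 and -2.07 in βUCP2Tg 1 to 4 and -4.47, -1.40, -1.74 and -4.14 in WT 1 to 4. Like *Apol9a* it was lowest in WT 1 and highest in WT 2, with a log2 difference of 0.58 (standard error 0.69, adjusted p = 0.63 by limma). These values are of its brightest probe. A dimmer tested *Apol10b* probe (A_66_P135956), well above background on 5 of 8 arrays, differed by 1 (standard error 0.94) and was not called. *Apold1* differed by -1.53 (standard error 0.42, adjusted p = 0.1). The groups overlapped, since WT 1 (-0.15) lay below βUCP2Tg 4 (0.27), while the other βUCP2Tg samples lay below every WT sample.

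*Cacng2* was set beside 18 genes of TARP proteins, AMPA receptor subunits and their partners. All have a probe, 10 were tested, none was called by limma, and the median log2 difference was 0.05. An unadjusted p under 0.05 was found for 1, against 4380 of 17870 over all genes. *Shisa7* differed by -0.55 (standard error 0.27, adjusted p = 0.247) and *Cacng4*, a TARP, by 0.48 (standard error 0.13, adjusted p = 0.0954). *Cacng4* was higher on every βUCP2Tg array than on any WT array. With so few genes called on the whole array, a count of 0 among 10 says little about the list.

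The stretch before the transcription start was read for the interferon-stimulated response element, since some members followed the interferon list and others did not. The motif searched was TTTCNNTTTC or, on the other strand, GAAANNGAAA, where N is any base. RefSeq (GRCm38.p6) gave a window of 300 bases, 250 before and 50 after the start, for 8 of the 10 members. The 250 bases before the start of *Apol9a*, which varied with the interferon list, and of *Apol7c* and *Apol7b*, which did not, are printed 5′ to 3′ on the minus strand, with matches in capitals.
Apol9a, chr15:77411081-77411330: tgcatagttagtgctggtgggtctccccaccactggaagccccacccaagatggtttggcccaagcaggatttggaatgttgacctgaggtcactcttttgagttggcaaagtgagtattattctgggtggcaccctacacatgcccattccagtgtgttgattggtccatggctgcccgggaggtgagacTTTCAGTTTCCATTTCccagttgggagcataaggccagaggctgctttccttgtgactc
Apol7c, chr15:77533316-77533565: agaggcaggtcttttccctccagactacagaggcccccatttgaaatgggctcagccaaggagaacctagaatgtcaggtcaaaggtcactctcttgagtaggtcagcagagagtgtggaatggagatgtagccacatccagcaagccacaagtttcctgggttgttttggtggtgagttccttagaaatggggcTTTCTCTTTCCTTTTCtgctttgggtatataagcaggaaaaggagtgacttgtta
Apol7b, chr15:77447461-77447710: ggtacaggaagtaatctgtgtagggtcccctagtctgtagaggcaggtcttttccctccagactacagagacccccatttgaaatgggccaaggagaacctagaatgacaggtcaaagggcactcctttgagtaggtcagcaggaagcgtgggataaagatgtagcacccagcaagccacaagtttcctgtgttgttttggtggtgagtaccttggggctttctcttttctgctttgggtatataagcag

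The motif was found in *Apol9a*, *Apol9b*, *Apol7c* and *Apol7e*, in each as a pair of overlapping matches, and not in *Apol7a*, *Apol7b*, *Apol8* or *Cacng2*. Of all 32851 windows, 3.44% held it and 0.225% held 2 or more matches. Of the interferon-stimulated genes, 35 had a window and 19 of these held the motif, 54.3%, against 3.99% of all genes. The *Apol9a* run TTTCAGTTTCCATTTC begins 59 bases before the more upstream of its 2 listed starts and 105 before the other, and it recurs letter for letter in *Apol9b*, whose window is identical over 278 aligned bases. *Apol7c* has TTTCTCTTTCCTTTTC from 55 bases before its start. A match was thus present in *Apol7c*, whose signal in WT 1 (-1.65) was the highest of its WT samples, as well as in *Apol9a*, for which WT 1 was the lowest. *Apol7b* and *Apol7c* were identical at 92.0% of 262 aligned bases of their windows. A match describes letters in a window and shows no binding.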

How the data were processed

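RNA from 4 βUCP2Tg and 4 WT islet samples was labelled with Cy3 and hybridised to Agilent mouse arrays. The authors' scans went through Feature Extraction, and the deposited scanner files hold background-subtracted spot intensity on a linear scale, with mm9 named in the header. The file headers and the submitters' processing notes (version 9.1) name different versions of this software. The authors also deposited a GeneSpring table of normalized log2 values, each array shifted by 1 constant, with their own p-value, fold change and log2 fold change per probe, which were not used. Probe sequences and gene symbols came from that table.

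Control spots and outlier spots were left out, and each array was scaled on the log2 scale by its 75th percentile before spots of a probe were averaged. An array counted as measuring a probe if 50% or more of its spots were marked as well above background. Groups were compared by genotype with limma 3.58.1 (lmFit, eBayes) in R 4.3.3 over all 35363 tested probes, after a check on simulated data. In lists, a gene is represented by the probe with the highest mean. Of the probes, 47 were named through RefSeq accessions, and 10439 have no symbol. The flanking genes include the *Apol* genes that are not members. Motifs, probe matches and promoter alignments were computed with Python 3.11.15 and Biopython 1.88.

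The members and lists were chosen with earlier results of these data known. Named genes were all members, *Ucp2*, the other *Apol* genes and the nearest flanking genes. The 5 genes nearest in profile to *Gm8221* and to the brightest *Apol9* probe were named too. For lists, the rule was to name called genes or else the 2 with the largest difference. It was followed for the interferon, flanking, TARP and dendritic lists and not for the other marker lists. Further genes named (*Txn2*, *Foxred2*, *Itgax*, *Flt3*) were chosen after their values were seen. The alternatives were no filter or a filter at all 8 arrays, other scalings, normexp, the deposited normalized values, outlier spots kept, an intensity trend, a replicate block and leaving out arrays. With 4 arrays a group, their number limits the precision.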

Additional observations from a re-analysis of the deposited data

How the results depend on the processing

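The number of probes called between βUCP2Tg and WT (145) moved to 21 with no filter on dim probes, to 237 with a filter at all 8 arrays, to 805 with the normexp background correction and to 379 with an intensity trend in limma. It ran from 8 to 3759 when each array was left out, the highest value coming without WT 1 and the lowest without βUCP2Tg 1, 2 or 3. The number of member probes called higher (3) became 0 with no filter, and ran from 0 to 3 when each array was left out. Under normexp the log2 difference of *Gm8221* was 0.86 and that of *Cacng2* 0.13. The cause was not tested, as this setting changes the background model and adds an offset together. The median log2 difference of the flanking genes was 0.10 with quantile normalization. The medians, including those of the TARP and other *Apol* lists, had no test. Across the 7 settings other than leaving out a single array, *Apol7c* lay between 2.25 and 3.08, *Apol9a* between 0.36 and 1.59, *Apol9b* between 0.40 and 1.81 and *Apol7b* between 0.09 and 0.22.

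Samples of both genotypes carry the numbers 1 to 4, but nothing in the labels says what a number stands for. Same-numbered samples correlated in their deviations at 0.44, -0.047, -0.0086 and -0.24, so the numbers were not taken to pair them. With the replicate number as a block, 14 probes and 0 member probes were called.

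Leaving out the WT arrays with metrics out of range gave 273 called probes, and leaving out βUCP2Tg 4 with WT 1 gave 5486. Both settings were chosen after seeing the data. In the latter, the interferon list's median was -0.14. The low signals of *Gm8221* in WT, of *Cacng2*, and of *Apol6*, *Apol7a* and *Apol8* limit what can be said of them.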
